A study of Homo sapiens with 4 samples.

Results

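The genes for making sterols and fatty acids were examined in MCF10A.B2 cells, a derivative of the immortalized human breast epithelial line MCF10A that carries a chimeric, chemically activatable Her2 receptor. The 32 genes comprise 17 enzymes of sterol synthesis, 5 regulators of the SREBP transcription factors, 8 enzymes of fatty acid synthesis, elongation and desaturation, the sterol carrier STARD4 and the sterol hydroxylase CH25H. They were found by name among the 27193 gene names on a whole genome expression array, and all 32 were among the 22022 genes that passed the filter on dim probes. Sterol genes outside these 32 and 5 lists of related genes are not analysed here.

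Total RNA of 2 control and 2 PAK1 shRNA samples was labelled with Cy3 and hybridized to 1 array each, 4 arrays in all. The PAK1 shRNA cells stably carried a Tet-inducible shRNA against PAK1, a serine/threonine kinase downstream of Rac and Cdc42. The control cells were labelled as PAK1 wild type, and the study's methods set wild type cells beside those with the shRNA. Both groups expressed the chimeric receptor, were grown in 5% horse serum, starved of serum for 3 h and given the receptor crosslinker AP1510 for 15 min. The study's methods do not say whether, or to which of the cells, the drug that induces the shRNA was given. No non-targeting shRNA was hybridized. Effects of PAK1 loss, of shRNA expression, of any inducer and of other differences between the shRNA line and wild type cells cannot be told apart. The labels call the samples duplicates of a cell line, the series text speaks of tumor derived cells, and neither says how the 2 replicates of a group arose, so the p-values measure the spread between these arrays, which may be technical.

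PAK1 itself was read at log2 intensities of 11.19 and 11.27 in control cells and 10.44 and 10.52 in PAK1 shRNA cells, a decrease to 59.5% of control (log2 fold change -0.75, SE 0.08, adjusted p = 0.000182, limma). The 2 arrays of a group correlated at 0.998 in both groups, against 0.934 to 0.943 between groups. All 8 basal mammary epithelial markers were well above background on all 4 arrays, as were 7 of 8 luminal markers, PGR being the exception. The basal sum went from 18.87 and 18.72 to 18.59 and 18.58, with 4 of 8 genes called lower and 2 higher. The luminal sum went from 17.55 and 17.51 to 17.97 and 17.83, with 2 of 7 genes tested called lower and 2 higher. LEP and FABP4 of the 6 adipocyte markers were not well above background on any array, and the summed adipocyte signal lay between 12.04 and 12.07 (log2) on every array. Of 3 adipocyte genes tested, 1 was called higher, CIDEC (0.78), and 1 lower, LIPE (-0.39). The summed leukocyte signal rose from 14.29 and 14.22 to 15.63 and 15.79 through CD14 and CD68, 2 of 5 genes tested. The fibroblast sum rose from at most 12.24 to at least 12.96, with COL1A2 and COL3A1 not well above background on any array. Of 4 fibroblast genes tested, 3 were called higher (COL1A1, DCN and LUM) and 1 lower (PDGFRB). The endothelial sum went from 10.15 and 10.20 to 9.89 and 9.85, with 2 of 5 genes tested called lower (PECAM1 and TEK) and 1 higher (VWF). The part of other cell types in the results on the 32 genes was not tested. In bulk RNA, fewer cells of a type and less RNA per cell cannot be told apart.

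Sterol synthesis starts from acetyl-CoA, passes through mevalonate and the isoprenoid diphosphates to squalene, and ends, after ring closure, in cholesterol. Fatty acid synthesis draws on the same acetyl-CoA. Many genes of both pathways are known targets of the SREBP transcription factors, which are held in the endoplasmic reticulum by SCAP and the INSIG proteins when sterols are plentiful and are released for cleavage when sterols are scarce. Mammary epithelium is known for high lipid synthesis, particularly in lactation.

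Of the 32 genes, 22 were down-regulated in PAK1 shRNA cells, 5 were up-regulated and 5 did not pass the threshold (adjusted p under 0.05, limma). Among all genes tested, 62.8% passed that threshold, 31.8% as lower and 31% as higher, so a call by itself was common in this comparison. The median log2 fold change of the 32 genes was -0.77, beside 0.02 over all genes. A decrease of at least 2-fold was called for 13 of the 32 genes, against 8.95% of all genes, and an increase of that size for 3, against 8.85%. The 2 groups of arrays did not overlap for 30 of the 32 genes, all but LSS and DHCR7, where 81.8% of all genes showed the same. Most of the 32 genes were brightly expressed, and among genes with a mean log2 intensity of at least 12, 41.8% were called lower, while 20 of the 25 sterol and fatty acid genes in that range were. The values by array show the control and PAK1 shRNA points apart for most genes.

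**Figure D1:**
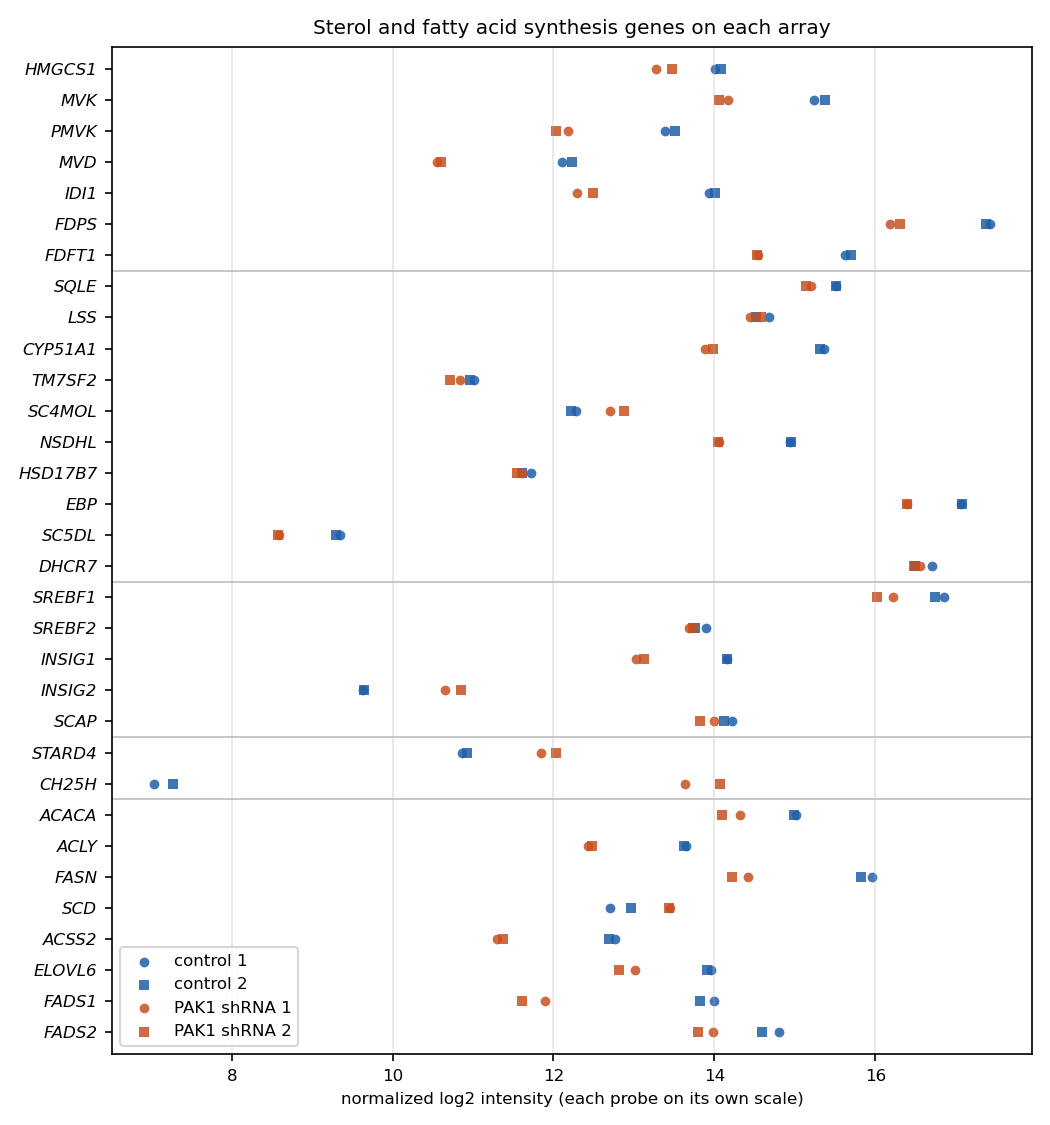
Normalized log2 intensity (x axis) of each of the 32 genes (rows, with lines between the role groups) on the 2 control arrays (blue) and the 2 PAK1 shRNA arrays (orange), circles for replicate 1 and squares for replicate 2. The control points lie to the right of the PAK1 shRNA points in every row of the first block, while CH25H is the row with the widest gap, from about 7 to 14; levels of different probes cannot be set against each other.

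Among the 32 genes, 7 encode enzymes that act between acetyl-CoA units and squalene, and they do not cover every step of that route. All 7 were down-regulated, against 31.8% of all genes, with a median log2 fold change of -1.20. A decrease of at least 2-fold was called for 6 of them, against 8.95% of all genes. HMGCS1, which makes HMG-CoA, was read at 14.01 and 14.08 in control cells and at 13.27 and 13.47 in PAK1 shRNA cells, the smallest decrease of the 7 (log2 fold change -0.68, SE 0.09, adjusted p = 0.00074, limma). MVK, the kinase that phosphorylates mevalonate, went from 15.23 and 15.38 to 14.17 and 14.05. MVD, the decarboxylase that yields isopentenyl diphosphate, went from 12.11 and 12.23 to 10.55 and 10.61, a log2 fold change of -1.59 (SE 0.08, adjusted p = 8.98e-06, limma) that left 33.2% of the control signal. Control and PAK1 shRNA arrays did not overlap for any of these enzymes, as for 81.8% of all genes tested. The gap between the groups was wider than the spread within either.

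Between them in the pathway, PMVK, which adds the further phosphate to mevalonate, fell to 39.4% of control (log2 fold change -1.34). IDI1, the isomerase that makes dimethylallyl diphosphate, was read at 13.93 and 14.002 in control cells and 12.29 and 12.49 in PAK1 shRNA cells (log2 fold change -1.57). FDPS, which condenses these units to farnesyl diphosphate, was among the brightest of the 32 and went from 17.43 and 17.37 to 16.18 and 16.31 (log2 fold change -1.16), without saturation on any array. FDFT1, the squalene synthase that commits farnesyl diphosphate to sterols, went from 15.63 and 15.70 to 14.54 and 14.53 (log2 fold change -1.13). The 95% intervals of all 7 fold changes lay below -0.45, the upper bound for HMGCS1.

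The 10 enzymes among the 32 genes that act from squalene to cholesterol were divided, with 5 down-regulated, 1 up-regulated and 4 that missed the threshold. The share lower was 50%, against 31.8% of all genes, and the median log2 fold change was -0.28. CYP51A1, the lanosterol demethylase, fell the most and was the only one of the 10 to change by at least 2-fold, from 15.37 and 15.31 to 13.88 and 13.98 (log2 fold change -1.41, SE 0.08, adjusted p = 1.25e-05, limma). NSDHL, a dehydrogenase that takes part in removing the methyl groups of lanosterol, fell to 53.8% of control, and EBP, the sterol isomerase, to 62.5%. SC5DL, the sterol desaturase also named SC5D, was a dim probe and went from 9.35 and 9.30 to 8.59 and 8.57 (log2 fold change -0.74). SQLE, the squalene epoxidase known as a flux-controlling step, fell by 0.34 on the log2 scale (adjusted p = 0.00571, limma), and missed the threshold at -0.10 with cyclic loess normalization and at -0.18 with scaling to the 75th percentile.

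SC4MOL, the methyl oxidase also named MSMO1 that precedes NSDHL in the same demethylation, changed in the opposite direction. It was read at 12.28 and 12.21 in control cells and at 12.71 and 12.88 after PAK1 shRNA, an increase of 0.54 on the log2 scale (SE 0.09, adjusted p = 0.00155, limma). Its probe was printed as 10 spots on each array, whose SD within an array was 0.22 to 0.27, so the spots of the 2 groups overlapped while the means over spots did not.

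For 4 enzymes of this segment the threshold was missed. LSS, which closes the ring system to lanosterol, had a log2 fold change of -0.09 with a 95% interval from -0.30 to 0.13, and DHCR7, a terminal reductase, of -0.08 with an interval from -0.31 to 0.15. HSD17B7, the ketoreductase of the demethylation, had a log2 fold change of -0.09 (interval -0.28 to 0.10). These 3 intervals leave out a decrease of the size seen for the enzymes before squalene. TM7SF2, a sterol reductase, lay closest to the threshold at -0.21 (interval -0.40 to -0.02, adjusted p = 0.0538, limma). Together the 17 sterol enzymes had 12 genes down-regulated (70.6%, against 31.8% of all genes) and 1 up-regulated, with a median log2 fold change of -0.74.

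**Figure D2:**
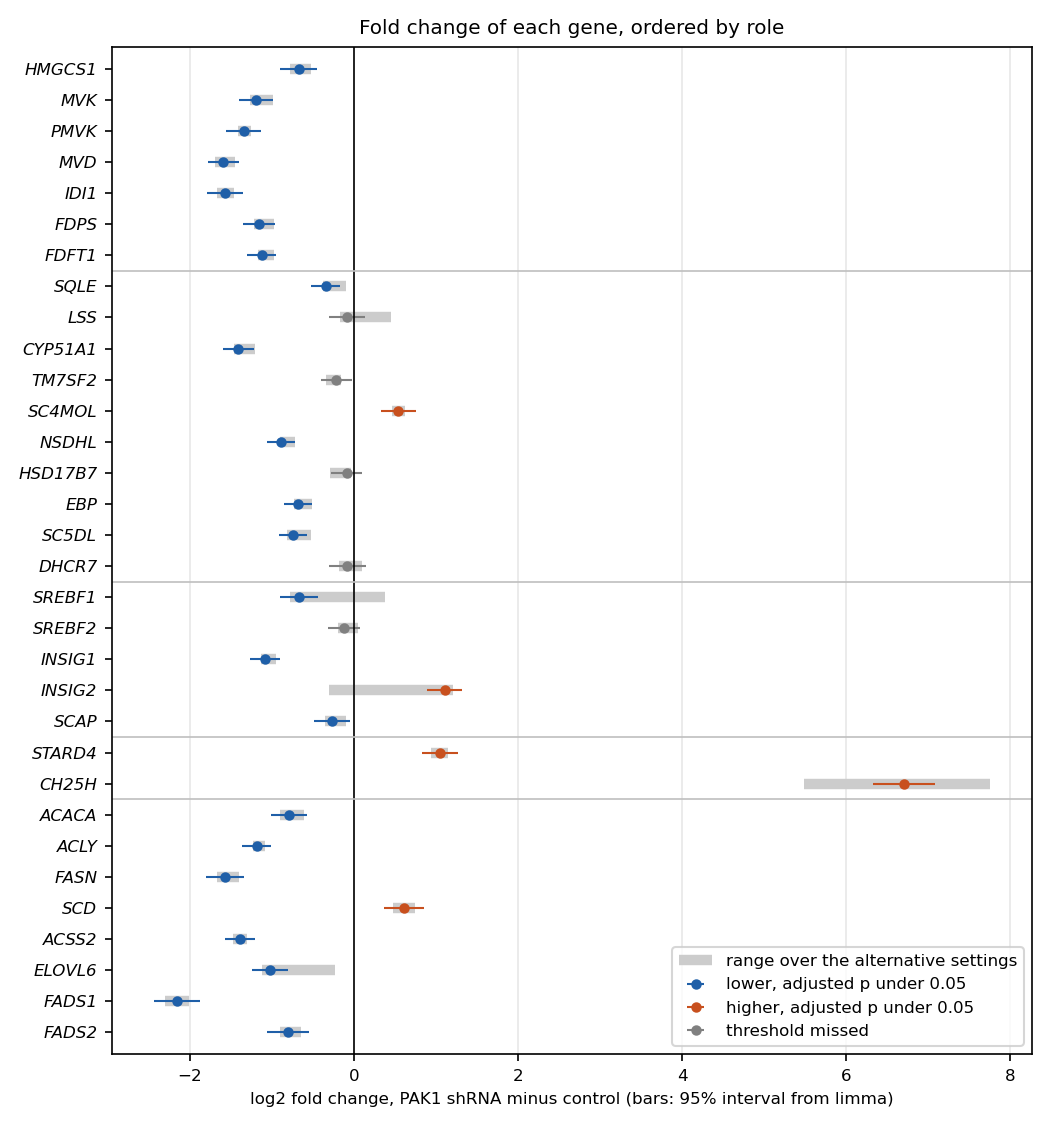
Log2 fold change of PAK1 shRNA over control (x axis) for each of the 32 genes in the order of their roles (rows), with the 95% interval from limma as a thin bar, the call as colour and the range over 22 alternative settings as a grey band. Points of the 7 enzymes before squalene all lie left of 0, between -1.59 and -0.68, and the grey bands of LSS, DHCR7, SREBF1, SREBF2 and INSIG2 cross 0.

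Of the 8 enzymes of fatty acid synthesis, elongation and desaturation, 7 were down-regulated, 5 by at least 2-fold, and SCD was up-regulated. Among all genes 31.8% were lower, and 8.95% were lower by at least 2-fold. The median log2 fold change of the 8 enzymes was -1.10. ACLY, which cleaves citrate to cytosolic acetyl-CoA, went from 13.65 and 13.62 to 12.42 and 12.47 (log2 fold change -1.19). ACSS2, which makes the same acetyl-CoA from acetate, went from 12.76 and 12.69 to 11.30 and 11.38 (log2 fold change -1.38). The 2 suppliers of acetyl-CoA thus read at 43.9% and 38.3% of control. ACACA, the carboxylase that makes malonyl-CoA, went from 15.01 and 14.99 to 14.32 and 14.10 (log2 fold change -0.79), and FASN, the synthase that builds palmitate, from 15.96 and 15.82 to 14.41 and 14.22 (log2 fold change -1.57, SE 0.10, adjusted p = 1.96e-05, limma).

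The enzymes that modify palmitate and longer chains did not move alike. FADS1, a desaturase of polyunsaturated fatty acids, was read at 13.99 and 13.82 in control cells and at 11.89 and 11.60 in PAK1 shRNA cells, the largest decrease among the 32 genes (log2 fold change -2.16, SE 0.12, adjusted p = 1.17e-05, limma). It retained 22.4% of the control signal. FADS2, the neighbouring desaturase that acts before it, fell less, from 14.80 and 14.59 to 13.99 and 13.80 (log2 fold change -0.80), and the 95% intervals of the 2 genes, -2.44 to -1.88 and -1.05 to -0.54, did not meet. ELOVL6, an elongase of saturated and monounsaturated chains, fell by 1.02 on the log2 scale.

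SCD, the stearoyl-CoA desaturase that makes oleate, went the other way, from 12.70 and 12.96 in control cells to 13.45 and 13.43 in PAK1 shRNA cells. This was an increase of 0.61 on the log2 scale (SE 0.10, adjusted p = 0.00186, limma), and the gap between the groups, from 12.96 to 13.43, was wider than the spread within either. SCD and SC4MOL were the only 2 of the 25 biosynthetic enzymes called higher.

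Among the 5 regulators of SREBP, 3 were down-regulated, 1, INSIG2, was higher on the probe used and SREBF2 missed the threshold. The share lower was 60% of these 5 genes, against 31.8% of all genes. INSIG1, the retention protein that is itself a well-known SREBP target, was read at 14.16 on both control arrays and at 13.03 and 13.13 in PAK1 shRNA cells (log2 fold change -1.08, SE 0.08, adjusted p = 3.48e-05, limma). INSIG2, its paralog, went from 9.63 and 9.65 to 10.65 and 10.85 (log2 fold change 1.11, SE 0.09, adjusted p = 6.44e-05, limma). This INSIG2 probe had the higher mean over all 4 arrays through its values in PAK1 shRNA cells. The other INSIG2 probe was slightly the brighter in control cells, at 9.69 and 9.70, and fell by 0.30, so no direction for INSIG2 as a gene is given.

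SREBF1, whose protein is known mainly for driving fatty acid genes, went from 16.85 and 16.74 to 16.23 and 16.02 (log2 fold change -0.67). SREBF2, whose protein is known mainly for driving sterol genes, had values of 13.90 and 13.76 in control cells and 13.68 and 13.74 after PAK1 shRNA, a difference of -0.12 with a 95% interval from -0.32 to 0.08. SCAP, the escort protein of both, fell by 0.26 on the log2 scale with an adjusted p of 0.0412 (limma), and it missed the threshold under 12 of 22 alternative settings, with adjusted p up to 0.382. Among these were the fits without control replicate 1 (-0.21), without control replicate 2 (-0.32) and without PAK1 shRNA replicate 2 (-0.18).

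The 2 genes that handle sterols after synthesis were both up-regulated, as were 31% of all genes. STARD4, a soluble carrier that moves cholesterol between membranes and is a known SREBP target, rose from 10.87 and 10.92 to 11.84 and 12.04 (log2 fold change 1.05, SE 0.09, adjusted p = 8.37e-05, limma). CH25H makes an oxysterol that restrains SREBP cleavage and is also known as an interferon-induced gene. Its processed signal, the background-subtracted brightness given by the scanner software, was 83.8 and 80.2 in control cells and 10380 and 14360 in PAK1 shRNA cells. On the normalized log2 scale it went from 7.03 and 7.27 to 13.63 and 14.07, the largest change of the 32 genes at 6.71 (95% interval 6.33 to 7.08, adjusted p = 5.47e-07, limma), or 104-fold. The probe was well above background on all 4 arrays, but the control values lay near the dim end of the scale, and the log2 fold change ranged from 5.49 to 7.76 over the alternative settings.

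Several of the 32 genes were measured by more than 1 probe, and for 3 of these 6 genes the probes differed in sign. For SREBF1, the probe at chr17:17715419-17715478 (hg19, minus strand) fell by 0.67 from 16.85 and 16.74, while the probe at chr17:17715304-17715363 went from 10.06 and 9.95 to 10.36 and 10.41, a log2 fold change of 0.38 (adjusted p = 0.00452 over all probes, limma). The INSIG2 probe at chr2:118864705-118864764 gave 1.11, while that at chr2:118866964-118867023 went from 9.69 and 9.70 to 9.34 and 9.45, or -0.30 (adjusted p = 0.0118, limma). The brighter LSS probe gave -0.09 and the dimmer one 0.45 (adjusted p = 0.0132, limma). The values given for SREBF1, INSIG2 and LSS thus hold for the probe of highest mean only, and the mean over both SREBF1 probes, -0.15, missed the threshold.

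The other 3 genes had probes of the same sign. Both ACACA probes fell by similar amounts, 0.79 and 0.74 on the log2 scale. The ELOVL6 probes fell by 1.02 and 0.23, the latter with an adjusted p of 0.0533 (limma), and the 3 HSD17B7 probes had log2 fold changes of -0.09, -0.01 and -0.29, of which only the dimmest passed the threshold (adjusted p = 0.0116, limma). Which transcript each probe reads was not tested.

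**Figure D3:**
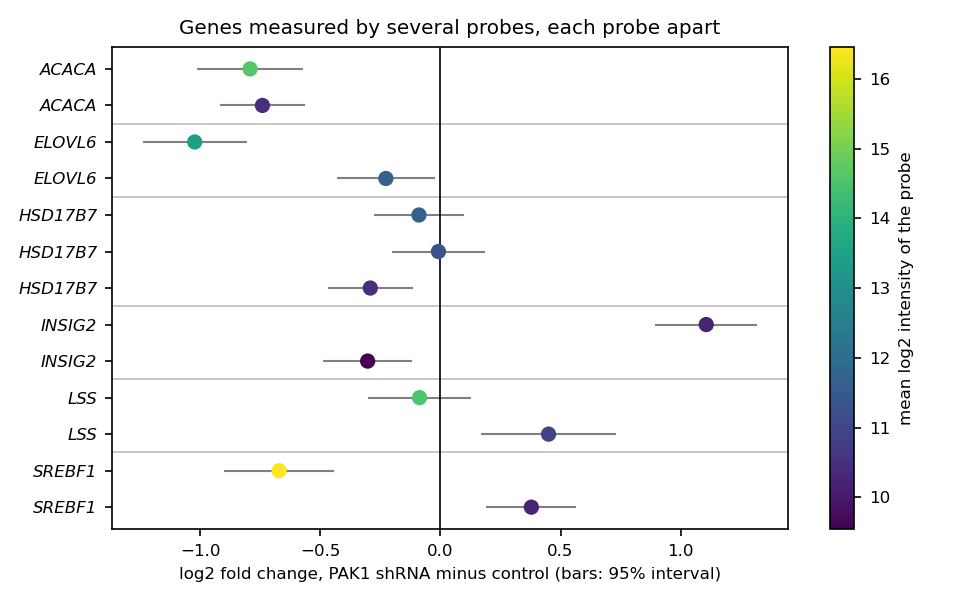
Log2 fold change of PAK1 shRNA over control (x axis, bars for the 95% interval) of every probe of the 6 genes with more than 1 probe, brightest first within a gene and coloured by mean log2 intensity. The 2 probes of SREBF1 and of INSIG2 lie on opposite sides of 0, whereas those of ACACA coincide at -0.79 and -0.74.

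Promoter sequences are shown because many of these genes share regulators. RefSeq (GRCh38.p14) promoters of 250 bases before the start were matched for 29 of the 32 genes, 40 promoters in all, with FDFT1, SQLE and FASN unmatched. The letters searched, on both strands, were a sterol regulatory element (SRE, TCACNCCAC), the CCAAT box bound by NF-Y, which works beside SREBP at many sterol genes, the GC box (GGGCGG) and an interferon-stimulated response element (GAAANNGAA). CCAAT stood in a promoter of 20 of the 29 genes (69%), against 37% of 27305 genes with a promoter. The GC box stood in 28 of 29 (96.6%), against 46.2%. The SRE letters stood in 1 of 29, SREBF2, and in 1.09% of all genes, and the interferon element in EBP alone of the 29, and in 8.41% of all genes; CH25H held neither in this window.

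By call, CCAAT stood in 12 of 19 down-regulated, 3 of 5 up-regulated and 5 of 5 genes that missed the threshold. A match of letters describes this window only and does not show binding. The lack of a match does not show that an element is absent, since variants of these letters were not searched. All genes with a promoter served for comparison, whether or not they passed the filter on dim probes. Given 5′ to 3′ along the gene are 3 down-regulated genes, the SREBF2 promoter with its SRE, and 2 up-regulated genes, with the SRE or CCAAT letters of either strand in capitals. They are MVD (chr16:88663092-88663341, minus strand), FDPS (chr1:155308616-155308865, plus strand), INSIG1 (chr7:155297628-155297877, plus strand), SREBF2 (chr22:41832855-41833104, plus strand), STARD4 (chr5:111512536-111512785, minus strand) and SCD (chr10:100346983-100347232, plus strand).
MVD: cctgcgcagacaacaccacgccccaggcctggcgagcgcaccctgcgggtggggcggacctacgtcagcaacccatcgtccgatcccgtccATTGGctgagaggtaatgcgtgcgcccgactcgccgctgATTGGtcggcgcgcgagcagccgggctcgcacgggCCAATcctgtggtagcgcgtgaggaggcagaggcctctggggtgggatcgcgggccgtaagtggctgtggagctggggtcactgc
FDPS: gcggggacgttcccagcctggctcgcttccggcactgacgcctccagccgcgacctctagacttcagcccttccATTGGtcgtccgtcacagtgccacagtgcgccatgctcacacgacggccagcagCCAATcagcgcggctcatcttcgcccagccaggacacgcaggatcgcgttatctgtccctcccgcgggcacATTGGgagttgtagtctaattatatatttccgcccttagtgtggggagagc
INSIG1: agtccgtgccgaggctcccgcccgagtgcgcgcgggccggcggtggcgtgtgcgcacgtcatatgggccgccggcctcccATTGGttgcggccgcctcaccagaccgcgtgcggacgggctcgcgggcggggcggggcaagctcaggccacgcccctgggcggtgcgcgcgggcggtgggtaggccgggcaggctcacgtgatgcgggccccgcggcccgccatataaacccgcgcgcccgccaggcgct
SREBF2: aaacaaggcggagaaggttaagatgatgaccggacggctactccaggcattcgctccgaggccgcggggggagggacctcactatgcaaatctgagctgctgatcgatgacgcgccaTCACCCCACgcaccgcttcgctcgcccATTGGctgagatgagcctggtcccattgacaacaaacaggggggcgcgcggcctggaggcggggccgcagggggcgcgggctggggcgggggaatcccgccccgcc
STARD4: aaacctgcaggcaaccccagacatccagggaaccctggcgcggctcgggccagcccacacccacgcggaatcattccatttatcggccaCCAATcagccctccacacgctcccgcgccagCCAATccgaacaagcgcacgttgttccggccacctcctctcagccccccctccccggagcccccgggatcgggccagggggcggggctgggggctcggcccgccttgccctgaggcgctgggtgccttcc
SCD: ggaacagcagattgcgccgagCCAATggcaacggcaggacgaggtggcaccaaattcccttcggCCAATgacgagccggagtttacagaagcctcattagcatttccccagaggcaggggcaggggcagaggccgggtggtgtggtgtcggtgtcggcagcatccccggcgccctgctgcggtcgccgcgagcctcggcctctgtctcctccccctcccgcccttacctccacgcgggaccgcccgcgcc
MVD and FDPS, which fell by at least 2-fold, hold 3 CCAAT boxes each, and STARD4 and SCD, which rose, hold 2 each. The 6 printed promoters were picked and do not stand for the calls. Among genes not printed, PMVK, CYP51A1, FADS1 and ELOVL6 fell by at least 2-fold and had no CCAAT match. SC4MOL, which rose, had CCAAT matches. INSIG1 holds 1, on the strand opposite to the gene, and in SREBF2 the SRE lies upstream of a CCAAT box, 133 and 106 bases before the start.

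Other genes of these pathways were followed through 5 lists of 115 genes, of which 112 were tested. In these lists 38 genes were higher (33.9%) and 44 lower (39.3%), near the 31% and 31.8% of all genes, with a median log2 fold change of -0.04 beside -0.77 for the 32 genes. SREBP processing and turnover showed 10 of 16 genes lower (62.5%, against 31.8% of all genes) and 1 higher. TMEM97, a sterol-responsive membrane protein, fell furthest there (log2 fold change -2.66, SE 0.08), and FBXW7, a ubiquitin ligase subunit that marks SREBP for degradation, was the 1 that rose (0.66). In the isoprenoid and ubiquinone branches 10 of 22 were lower (45.5%) and 7 higher (31.8%), from LBR, the lamin B receptor that shares its sterol reductase activity with TM7SF2 (-2.16), to RABGGTA, a prenyltransferase subunit (0.69).

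Of 25 sterol transport, storage and LXR genes tested, 12 were higher (48%, against 31% of all genes) and 7 lower (28%, against 31.8%). STARD5, a relative of STARD4, rose most, from 11.06 and 10.83 to 14.28 and 14.42 (log2 fold change 3.40, SE 0.10), and CAV1, the caveolar coat protein, fell most (-1.66). Fatty acid elongation, activation and supply had 11 of 28 genes in each direction (39.3%), among them PTPLAD1, an elongation dehydratase also named HACD3 (-1.89), and FADS3, which lies beside FADS1 and FADS2 (1.40). Triacylglycerol and phospholipid synthesis had 7 of 21 genes higher (33.3%) and 6 lower (28.6%), close to the shares of all genes, between PEMT, a phosphatidylcholine-making methyltransferase (-1.20), and AGPAT4, an acyltransferase (1.17). The genes named from these lists were picked as the largest rise and fall past the threshold, and their calls are therefore a description.

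**Figure D4:**
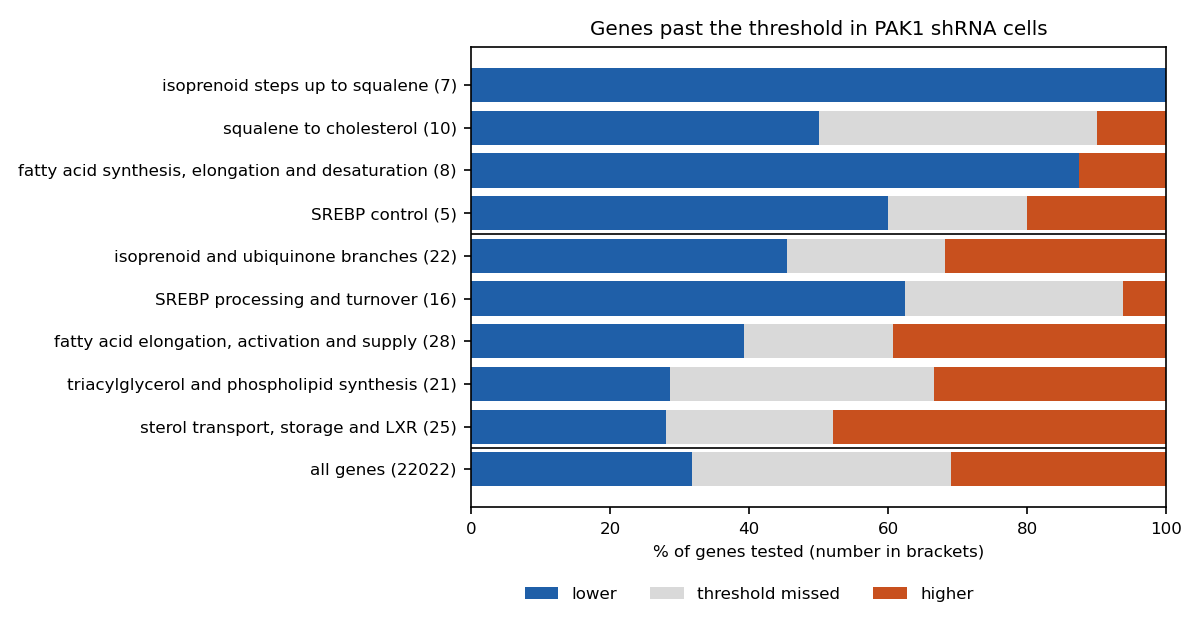
Share of genes tested (x axis, %) that were lower, missed the threshold or were higher in PAK1 shRNA cells, for 4 role groups of the 32 genes (top), 5 lists of related genes (middle) and all 22022 genes tested (bottom). The bar of the 7 enzymes before squalene is wholly lower, and sterol transport, storage and LXR is a list with more genes higher (12) than lower (7).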

How the data were processed

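RNA of 2 control and 2 PAK1 shRNA samples was measured on 1 slide of 1-colour Agilent arrays, grouped by the labels. The authors deposited the spot intensity as written by Agilent Feature Extraction 9.5.3.1, not yet normalized, and a table of log2 values made by the authors, used here as an alternative (24302 probes, correlation of at least 0.9993 with the values used here; column medians 9.40 to 9.42; its direction is that of the intensities, and the study's methods name normexp and quantile normalization for the arrays, the offset being not given in the sources used here). Each array held 43118 non-control spots of 34127 probes, 78.9 to 83.1% well above background, and their number limits the precision.

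Local background was corrected with normexp (offset 50). Its parameters were fitted without spots of flagged background, 618 and 651 on the control arrays. With all spots used, the fitted background mean of the control arrays went from -9.19 and -12.1 to -666 and -740. The control arrays held 8 and 18 spots with a background over 100, the PAK1 shRNA arrays 0. Which spots moved the fit was not tested. Control spots were dropped, arrays quantile normalized, flagged spots left out and spots of a probe averaged. A probe entered the test if either group had it well above background on both arrays, and each gene was read from its brightest probe. The test was that of limma 3.58.1 (lmFit, eBayes; R 4.3.3), two-sided, with Benjamini-Hochberg adjustment over all genes and a threshold of 0.05. A single value permuted exactly over 2 against 2 arrays cannot go below p = 0.333. Only the limma test and its adjustment were tried on simulated gene values, not the steps before them.

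All 32 genes, PAK1 and, from each related list, the largest rise and fall among genes past the threshold and well above background on all arrays are named; marker genes and those in the observations lie outside this rule and were named after their values were seen. The members and lists were chosen with earlier results of these data known. Probe coordinates are those of the array files (hg19), and promoters are RefSeq GRCh38.p14. Alternatives changed the background, the normalization, the dim-probe filter, the flags, the choice of probe, the test or its threshold, added a replicate block, or left out 1 array.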

Additional observations from a re-analysis of the deposited data

How the results depend on the processing

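Over 22 alternative settings, 658 of 704 values of the 32 genes kept their direction and their side of the threshold, 31 lost the call, 6 gained one, 3 reversed and 6 changed sign without a call in either fit. Of these 6, cyclic loess gave LSS 0.04, DHCR7 0.09 and SREBF2 0.05, the mean over probes gave LSS 0.18, scaling to the 75th percentile gave SREBF2 0.0095, and DHCR7 was 0.03 without control replicate 1. The 3 reversals all came from taking the dimmest probe of a gene: LSS went to 0.45, SREBF1 to 0.38 and INSIG2 to -0.30. The median of the 32 genes moved to -0.63 with cyclic loess and was -0.83 to -0.71 when 1 array was left out, with 21 to 22 genes lower and 5 higher; its outer value of -0.83 came without PAK1 shRNA replicate 1. An ordinary unpaired t-test, which the study names for its statistics in general and not for the arrays, was run on the same values. With Benjamini-Hochberg adjustment it called 3 of the 32 genes higher and 18 lower. Of all genes it called 4370 higher and 4764 lower. SC4MOL and SCD were the 2 of the 32 genes no longer called higher. With a fold of at least 2 required, 3 of the 32 genes were higher and 13 lower, 13 related genes were higher and 13 lower, and 1950 of all genes were higher and 1971 lower, while PAK1 at -0.75 fell short of that size. Median centring shifted the median of all genes to 0.14 and gave 8464 genes higher and 6689 lower, with 5 and 23 of the 32 genes. Replicate numbers did not pair the samples (correlation of deviations 0.0102 over 22000 genes), and the fit with the replicate block called 5 of the 32 genes higher and 22 lower, and 6975 and 7070 of all genes. No block for slide could be fitted, all arrays being on 1 slide. No array had any of the 32 genes at background, but the size of the CH25H change, whose control values were the dimmest, went from 5.49 with normexp on all spots to 7.10 with an offset of 16 and 7.76 with the processed signal. The cause of these differences between settings was not tested.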

Other observations

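A few genes of the sterol transport, storage and LXR list are given here as values chosen after they were seen, and they do not stand for the list. In the same list SOAT1 (-0.01) and OSBP (0.18) missed the threshold. Of the 25 genes tested there, 12 were higher and 7 lower. Among the lower genes were LRP8 (-1.50), OSBPL5 (-0.74), NR1H3 (-0.39) and SULT2B1 (-0.23). ABCG1, a sterol exporter, went from 9.25 and 9.16 in control cells to 11.88 and 11.82 in PAK1 shRNA cells (log2 fold change 2.65, SE 0.08). LIPA, the lysosomal acid lipase, went from 14.87 and 14.78 to 16.67 and 16.66 (1.84), and NCEH1, a cholesteryl ester hydrolase, from 12.51 and 12.46 to 14.51 and 14.61 (2.07). HSD3B7, an enzyme of bile acid synthesis from oxysterols, had a log2 fold change of 2.30, with values of 10.13 and 10.02 against 12.28 and 12.47. Groups did not overlap for any of these 4 genes, as for 81.8% of all genes tested.

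ACAT2, which makes the acetoacetyl-CoA used by HMGCS1, went from 13.77 and 14.04 to 12.42 and 12.42 (log2 fold change -1.49, SE 0.10). CD68, a lysosomal protein and macrophage marker, rose from 8.98 and 8.83 to 12.42 and 12.89 (3.75, SE 0.16), while PTPRC and CD3E, which mark leukocytes and T cells, did not pass the threshold.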
